A study of Rattus norvegicus with 15 samples.

Results

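The annexins are a family of proteins that bind membranes rich in acidic phospholipids when calcium is present. The genes described here are 9 of the family members that the arrays name on a probe: Anxa1, Anxa2, Anxa3, Anxa4, Anxa5, Anxa6, Anxa7, Anxa11 and Anxa13. They were chosen by gene name, with Anxa3 as the lead, after earlier results of these data had shown how they behave across the fractions. Their 11 probes are among 45598 on the array, and 7 of the 9 genes are among the 17055 features bright enough to be tested, where a feature is a gene represented by its brightest probe.

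The cells were hepatocytes isolated from female Wistar rats, with no treatment named in the labels. They were stained with the DNA dye Hoechst33342 and sorted into fractions with DNA contents of 2c (a diploid cell that has not replicated its DNA), 4c and 8c. Each of 5 experiments gave 1 one-colour (Cy3) array for every fraction, so each group has n = 5 and the series 15 arrays. The rats were 12, 14, 6, 5 and 6 weeks old in experiments 1 to 5. Neither the number of animals behind an experiment nor the sorting gates are stated. DNA content does not separate tetraploid cells from diploid cells that have replicated, and both may be in the 4c fraction.

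Annexin cores hold repeats that carry the calcium sites, and each member has its own N-terminal tail, to which partners such as S100 proteins bind. Anxa1 and Anxa2 are known for roles in inflammation, exocytosis and the cell surface, and Anxa2 pairs with S100a10 as a receptor for plasminogen. Anxa5 binds exposed phosphatidylserine on dying cells, and several members gather at torn plasma membrane during its repair. In normal liver, Anxa6 is an abundant annexin of hepatocytes, and Anxa1 and Anxa2 are known chiefly from other cells, among them macrophages and endothelial cells.

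Levels are log2 intensities relative to the 75th percentile of the same array, so 0 is that percentile. They describe a share of the RNA in a fraction, not an amount per cell, and levels of different probes are not set against each other. In such bulk samples, fewer cells of a type and less RNA per cell cannot be told apart. A probe counts as detected where the scanning software marks it as well above background. For a probe with several spots, the marked spots had to be no fewer than the unmarked ones. The lowest level among an array's detected probes is called its floor. Floors lay between -7.26 and -6.00 on 14 arrays and at -5.96 on the 2c array of experiment 5, and between 39.5% and 47.4% of the probes were detected per array. Transcripts of pancreatic acinar cells were abundant on 6 arrays: 2c and 8c of experiment 1, all 3 fractions of experiment 2, and 8c of experiment 3. Precision is limited by the 5 arrays of a group.

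The probes shown are those of Anxa2, Anxa3 and Anxa5, the tested members with the largest fitted differences between 2c and the other fractions. Each is 60 bases long, and its first 30 bases are shown, in lower case and 5' to 3', to identify what was hybridised. Anxa3 has a pair of probes that gave different signals, and both are shown.

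Anxa3, brighter probe: aagacctactaatgattttttatttggctt
Anxa3, dimmer probe: cttagagtaatgaggcggatcaaagactac
Anxa2: taccgtctgtgacatgagacacttcctcat
Anxa5: ggacgatcacaccctcatcagagtcatagt

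In the rn4 assembly that the files use, the brighter Anxa3 probe lies at chr14:14245218-14245277 and the dimmer at chr14:14243226-14243285, both on the minus strand. The Anxa2 probe lies at chr8:73933982-73934041 on the plus strand and the Anxa5 probe at chr2:122950184-122950243 on the minus strand. The part of the gene under each probe is not stated, because no annotation of rn4 was used here.

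Of the 9 genes, 4 were detected on all 15 arrays (Anxa4, Anxa6, Anxa7 and Anxa11). Anxa2 was detected on 8 arrays (5 of 2c, 1 of 4c, 2 of 8c), Anxa3 on 6 (5, 0 and 1) and Anxa5 on 6 (3, 1 and 2). Anxa1 was detected on 1 array and the brighter of the Anxa13 probes on 1, and the dimmer probes of Anxa3 and Anxa13 on 0. Anxa1 and Anxa13 were therefore not tested. The remaining family members with a probe were as dim: Anxa8 and a probe described as Anxa9 were detected on 0 arrays, and each of the 2 Anxa10 probes on 1, the 2c array of experiment 1.

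Anxa3, the member at the head of the group, was high in 2c and near or below the floor in 4c and 8c. Its levels in 2c were -0.73, -5.55, -3.06, -5.65 and -3.45 in experiments 1 to 5. In 4c they were -7.41, -7.92, -5.88, -7.38 and -8.39, and in 8c -8.70, -7.72, -6.06, -8.03 and -8.04. Every 2c array was above every 4c and 8c array, and the 4c and 8c arrays overlapped. Within 2c the spread was wide, from an intensity of 442 in experiment 1 to 8.84 in experiment 2.

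The mean level of Anxa3 was -3.69 ± 2.03 in 2c, -7.40 ± 0.94 in 4c and -7.71 ± 0.99 in 8c (SD, n = 5). Against 2c, the fitted log2 difference was -3.71 in 4c and -4.02 in 8c (SE 0.74 each), and 8c differed from 4c by -0.31 (SE 0.74). These values include readings under background, which have no exact level. With normexp background correction the differences were -0.90 in 4c and -0.93 in 8c. That correction adds an offset of 50 to every intensity, which by arithmetic narrows log2 differences of dim probes. In experiment 3, the only one with Anxa3 detected in both 2c and 8c, the difference was -2.99. Since 0 of 5 4c arrays detected the gene, its fold has no exact value. A floor is no detection limit of this probe, so a fold drawn from it is no strict bound. On the 4c array of experiment 3 Anxa3 was undetected at -5.88, above the floor of -6.00. With each dim array set to its floor or to its own level, whichever was higher, Anxa3 was 8.15-fold higher in 2c than in 4c. On the same basis 2c was 7.36-fold higher than 8c, where only experiment 3 detected it, at an intensity of 8.81. These values chose the gene and are given as a description with no test.

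The dimmer Anxa3 probe was not well above background on any array. Its highest level, -6.37, was on the 2c array of experiment 1, the array on which the brighter probe was highest. Its group means were -7.59 ± 0.78 in 2c, -8.33 ± 0.47 in 4c and -8.31 ± 0.58 in 8c (SD, n = 5), so the pattern of the brighter probe rests on that probe alone.

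Anxa2, the plasminogen receptor subunit, stood out in 2c in the same way. In 2c its levels were -2.80, -5.49, -3.79, -4.57 and -4.55 in experiments 1 to 5, all detected. In 4c they were -8.52, -8.28, -6.50, -6.18 and -8.73, of which only experiment 4 was detected. In 8c they were -9.10, -8.01, -5.44, -5.96 and -8.28, of which experiments 3 and 4 were detected.

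The 2c and 4c arrays of Anxa2 did not overlap, and the 8c array of experiment 3 was just above the lowest 2c array. The log2 difference from 2c was -3.40 in 4c and -3.12 in 8c (SE 0.60 each), and 8c differed from 4c by 0.28. For Anxa2 the SD over experiments was 1.58 for 4c against 2c, 2.00 for 8c against 2c and 0.59 for 8c against 4c. With normexp background correction the differences from 2c were -0.62 and -0.59. Where both 2c and 8c were detected, the difference was -1.65 in experiment 3 and -1.40 in experiment 4. With dim arrays at their floor, 2c was 4.98-fold above 4c and 4.06-fold above 8c.

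Anxa5, the phosphatidylserine binder, was closer to background. Its 2c levels were -3.67, -6.34, -5.23, -5.96 and -5.36, with experiments 2 and 5 not detected. The 4c levels were -5.55, -6.59, -7.52, -7.50 and -7.54, with experiment 1 alone detected, and the 8c levels -6.63, -7.06, -6.20, -7.88 and -8.24, with experiments 1 and 3 detected. The groups overlapped, although 2c gave the highest reading in each of the 5 experiments, in experiments 2 and 5 with no fraction detected.

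The log2 difference of Anxa5 from 2c was -1.63 in 4c and -1.89 in 8c (SE 0.37 each), and 8c differed from 4c by -0.26. With normexp background correction they were -0.20 and -0.24. Where 2c and 8c were both detected, the difference was -2.95 in experiment 1 and -0.96 in experiment 3. With dim arrays at their floor, 2c was 2.13-fold above 4c and 2.23-fold above 8c. Its probe has 2 spots per array, which read 56.8 and 58.5 on the 2c array of experiment 1 but 1.38 and 3.90 on the 8c array of experiment 4. On the 8c arrays of experiments 1 and 3 only 1 of the 2 spots was well above background. Without these 2 arrays Anxa5 would not have reached the 5 detected arrays that a test needed.

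Anxa1, an inhibitor of inflammatory signalling, was detected only on the 2c array of experiment 1, at a level of -5.32. There all 10 of its spots were well above background, with intensities of up to 22.4. On the other 2c arrays it was at -7.57, -6.36, -7.33 and -6.44, and on the 4c and 8c arrays between -8.76 and -7.78. Levels under the floor have no order, so no difference is drawn from them.

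**Figure D1:**
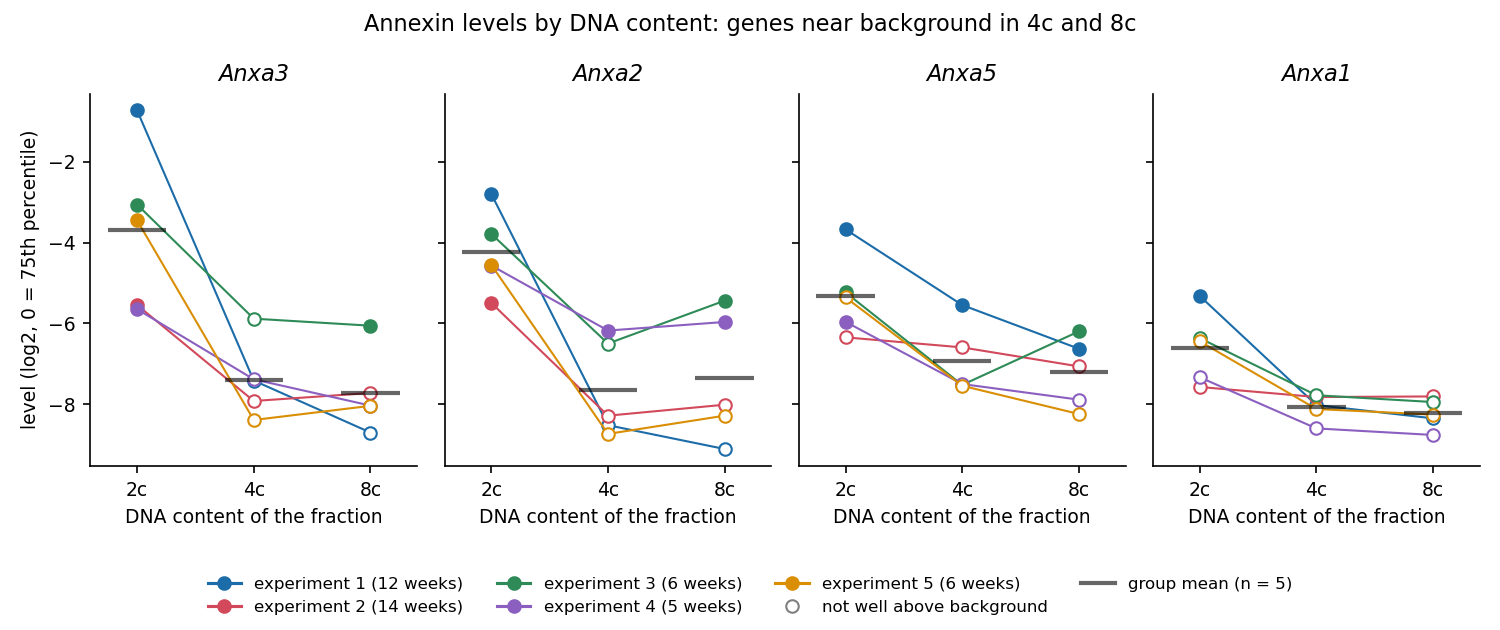
Levels of Anxa3, Anxa2, Anxa5 and Anxa1 in each DNA content fraction (y axis, log2 relative to the array's 75th percentile; 1 line per experiment, bars the mean of 5 arrays). Filled points are well above background and open points are not: Anxa3 is filled on all 5 2c arrays, on no 4c array and on the 8c array of experiment 3.

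Anxa7, an annexin linked to secretion and membrane fusion, was detected on every array and differed less between fractions. Its 2c levels were -3.10, -4.43, -3.00, -2.53 and -3.05. In 4c they were -3.83, -5.29, -3.98, -2.58 and -3.42, and in 8c -4.10, -5.44, -3.52, -2.61 and -3.54. Both 4c and 8c were below 2c in 5 of 5 experiments, with the smallest differences, -0.06 and -0.08, in experiment 4, and the groups overlapped because the experiments differed more than the fractions.

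The log2 difference of Anxa7 was -0.60 for 4c and -0.62 for 8c against 2c (SE 0.15 each), a 1.54-fold higher level in 2c than in 8c. Experiment 2 was the lowest in every fraction and experiment 4 the highest. Of the sum of squares over the 15 arrays, 84.7% lay between experiments and 10.9% between fractions for Anxa7, against 13.6% and 67.6% for Anxa3.

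Anxa4, Anxa6 and Anxa11 differed little between the 3 fractions. Anxa6, the hepatocyte annexin with a doubled core, ran from 0.47 to 0.93 in 2c, from 0.63 to 0.95 in 4c and from 0.55 to 1.02 in 8c. Anxa4, an annexin of secretory epithelia, had means of -2.52, -2.53 and -2.46, and Anxa11, which tethers RNA granules to lysosomes, means of 2.02, 2.07 and 2.04. Their 9 fitted differences between fractions lay between -0.07 and 0.08 on the log2 scale, with SEs of 0.07 to 0.10, and all but those of Anxa6 and Anxa11 for 4c against 2c took the other sign in some alternatives. Anxa11 was highest in experiments 1 and 2 in each fraction, with 86.9% of its sum of squares between experiments.

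**Figure D2:**
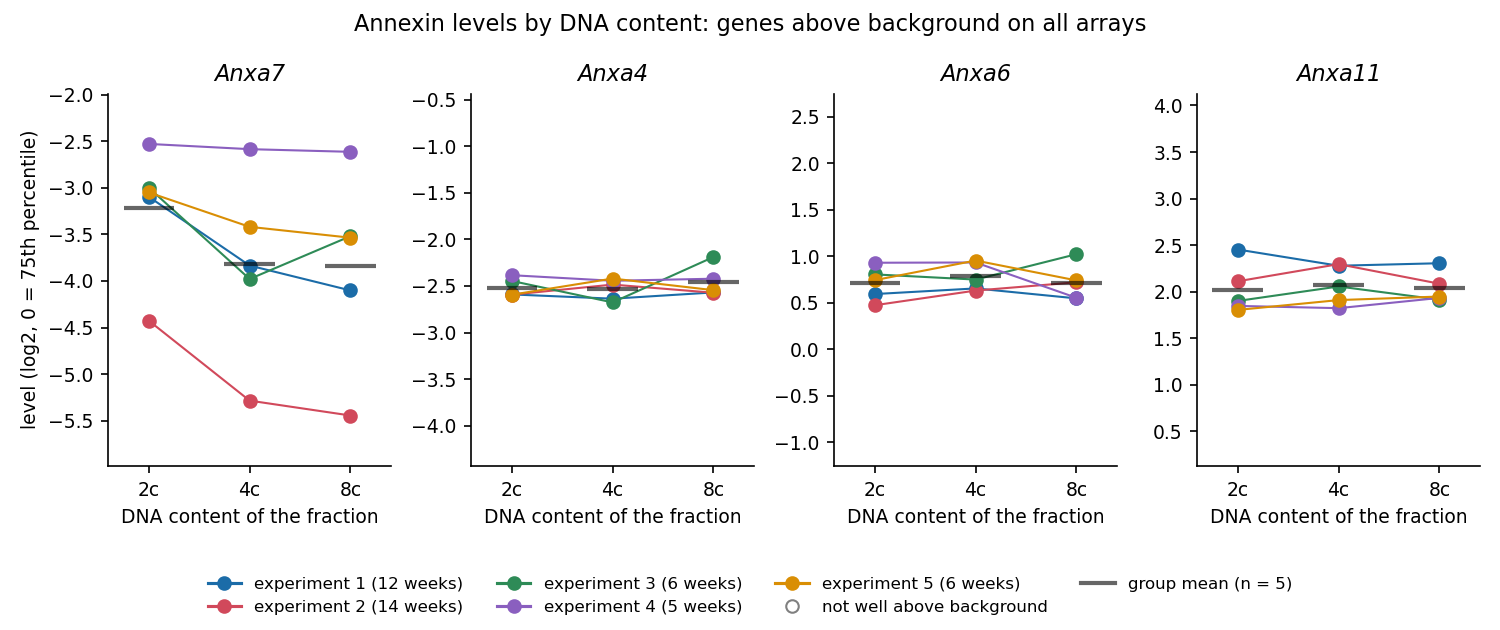
Levels of the 4 annexins detected on all arrays, by fraction (y axis, log2 relative to the array's 75th percentile, same length of axis in each panel; 1 line per experiment, bars the mean of 5 arrays). Anxa7 is lower in 4c than in 2c in each experiment, by most in experiment 3, and for each of Anxa4, Anxa6 and Anxa11 the 3 group means lie within 0.08 of each other.

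Anxa13, an annexin of intestine and kidney epithelium, was not well above background on 14 arrays. On the 8c array of experiment 2 its brighter probe read -3.26, an intensity of 42.2, while all other arrays were at -6.87 or lower. The dimmer Anxa13 probe read -7.73 on that array, under the floor. That array is also one of those with abundant acinar transcripts, and the part of these in the reading was not tested.

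By the limma fit over all features (Benjamini-Hochberg adjusted p under 0.05), 3 of the 7 tested annexins passed as lower in 8c than in 2c: Anxa2, Anxa3 and Anxa5. Among all features, 1.56% passed as lower and 0.809% as higher, 2.37% in all. Against 2c, 2 passed as lower in 4c (Anxa2 and Anxa3), where 1.01% of all features did, 0.264% passed as higher and 1.27% passed in either direction. Between 8c and 4c 0 passed, and 0 had an unadjusted p under 0.05. For Anxa2 and Anxa3 the shared SE is too large for 8c against 4c, so this 0 says less about them. Of all features 0.639% passed there as higher and 0.0117% as lower, 0.651% in all. The members were chosen with these comparisons known, so nothing is read from these counts. Anxa2 and Anxa3 also reached the 5 detected arrays that a test needed through their 2c arrays alone. The 2 comparisons with 2c also share their 2c arrays.

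Over the 7 tested annexins the median log2 difference was -0.62 in 8c and -0.60 in 4c against 2c, beside -0.02 and -0.03 over all features, and -0.04 between 8c and 4c, beside 0.00. Of these 7, 4 were lower in 8c than in 2c in 5 of 5 experiments (Anxa2, Anxa3, Anxa5 and Anxa7), as were 8.07% of all features. The same 4 were lower in 4c in 5 of 5 experiments, as were 8.62% of all features, and between 8c and 4c 0 of the 7 were, beside 4.71%. For Anxa5 the order in experiments 2 and 5 rests on readings not well above background in any fraction. The 2c arrays did not overlap with 8c for Anxa3 (0.886% of all features), nor with 4c for Anxa2 and Anxa3 (0.939%), and between 8c and 4c 0 of the 7 were free of overlap (0.223%).

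**Figure D3:**
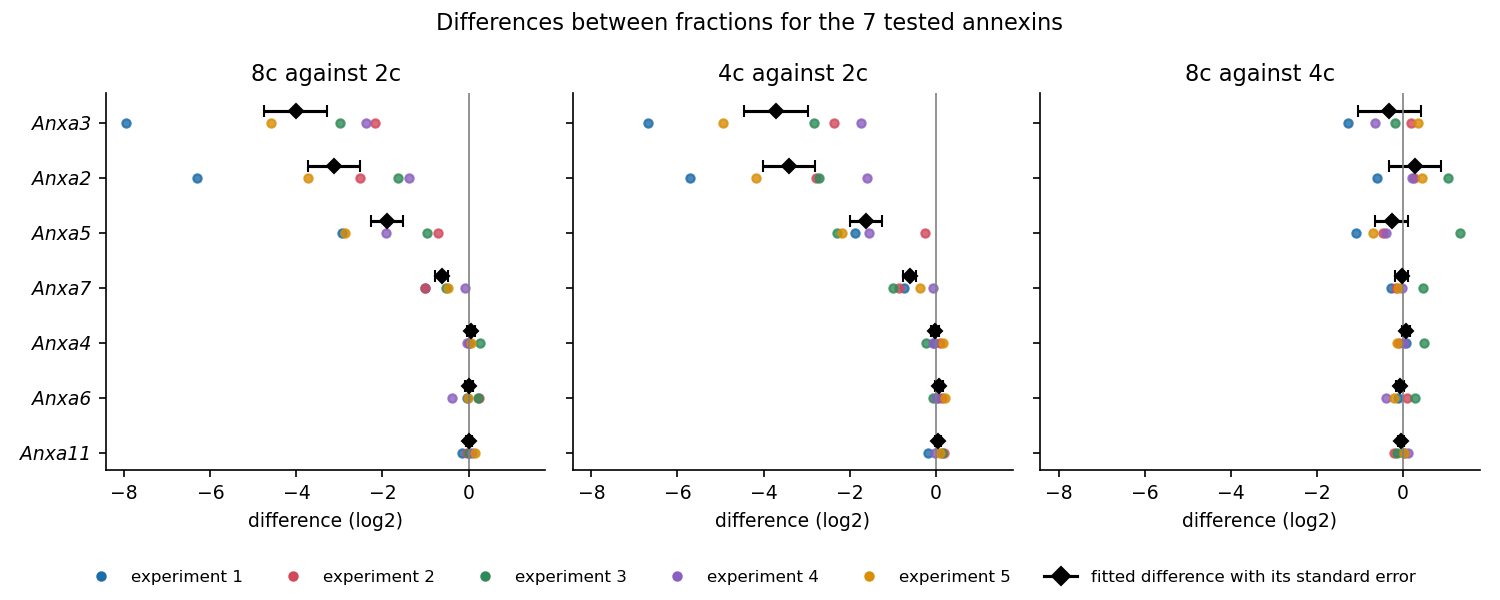
Log2 differences between fractions for the 7 tested annexins (x axis), with 1 coloured point per experiment (readings under background included) and the fitted value with its standard error as a black diamond. Anxa3, Anxa2, Anxa5 and Anxa7 lie left of 0 in both comparisons with 2c in all 5 experiments, and the 8c against 4c differences scatter around 0.

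These counts depended on the experiment as a block and on single experiments. Without the block 0 annexins passed in either comparison with 2c. For 8c against 2c, 1 passed without experiment 3 and 0 without experiment 5, and for 4c against 2c, 1 passed without experiment 1 or 4 and 0 without experiment 2, 3 or 5. The differences of these genes from 2c kept their sign in each of those fits. The counts over all features fell as well, from 404 and 217 to 39 and 3 without the block. Without experiments 1 to 5 in turn, 165, 236, 234, 274 and 102 of all features passed for 8c against 2c. For 4c against 2c they were 49, 25, 20, 185 and 3, so the drop was not particular to the annexins. For Anxa3 the 8c against 2c difference was -4.78 within slide 1 and -3.48 within slide 2, and for 4c against 2c -3.96 and -3.34. Without the 6 arrays rich in acinar transcripts the differences were -3.40 and -3.16.

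Upstream sequences are shown for the 3 tested members with the largest fitted differences between 2c and the other fractions, so that they can be compared. RefSeq promoters of the GRCr8 assembly were matched by symbol for 7 of the 9 members, and 250 bases before the gene start were searched on both strands for 4 motifs. They were TATAAA, an element of core promoters; CCAAT, which the factor NF-Y binds; GGGCGG, the GC box that Sp1 binds; and TGANTCA, which AP-1 factors bind. Capitals mark the matches, which did not overlap each other.

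Anxa3 (GRCr8 chr14:13085598-13085847, minus strand): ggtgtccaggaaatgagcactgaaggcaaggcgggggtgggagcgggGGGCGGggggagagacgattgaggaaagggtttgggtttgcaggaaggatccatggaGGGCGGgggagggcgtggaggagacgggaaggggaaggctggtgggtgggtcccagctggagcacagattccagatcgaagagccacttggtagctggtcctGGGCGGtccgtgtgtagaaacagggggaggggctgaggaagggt
Anxa2 (GRCr8 chr8:78986002-78986251, plus strand): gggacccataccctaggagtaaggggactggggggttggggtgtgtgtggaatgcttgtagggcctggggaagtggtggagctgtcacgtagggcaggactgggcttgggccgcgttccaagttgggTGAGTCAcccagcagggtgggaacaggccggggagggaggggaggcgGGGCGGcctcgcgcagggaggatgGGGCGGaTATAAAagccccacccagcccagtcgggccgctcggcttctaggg
Anxa5 (GRCr8 chr2:121272697-121272946, minus strand): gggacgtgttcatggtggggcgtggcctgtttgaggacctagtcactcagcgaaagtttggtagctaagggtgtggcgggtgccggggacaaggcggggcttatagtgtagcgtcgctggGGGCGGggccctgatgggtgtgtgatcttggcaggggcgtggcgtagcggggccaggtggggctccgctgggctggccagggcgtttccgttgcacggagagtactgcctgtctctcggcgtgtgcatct

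The Anxa3 window held 3 GC boxes and no other motif, the Anxa2 window 2 GC boxes, the core promoter element 45 bases before the start and an AP-1 motif 123 bases before it, and the Anxa5 window 1 GC box. Of all 33469 promoters in the table, 30.5% held a GC box in the same window, 12.9% the core promoter element, 34.0% the NF-Y motif and 6.34% the AP-1 motif. GC content was 64.0%, 67.2% and 65.2% for Anxa3, Anxa2 and Anxa5, against a median of 51.2% over all promoters. Of the other matched members, Anxa11 held 4 GC boxes, Anxa4 1 GC box and 1 NF-Y motif, Anxa7 1 NF-Y motif and Anxa1 1 core promoter element. The match of letters is a description and not a site.

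The genes whose levels were most like those of Anxa3 were sought among 10306 tested genes that are no annexin. Each had a gene symbol and was detected on every array of at least 1 group. After each experiment's mean was removed, the 6 highest Pearson correlations over the 15 arrays were those of Pilra (0.993), Pltp (0.993), Arhgdib (0.991), Ifitm1 (0.989), Ccdc80 (0.987) and Cd5l (0.986). Without that step the highest 3 were Pilra (0.986), Cd5l (0.985) and Tyrobp (0.982). Pilra, Pltp and Cd5l were each detected on 0 4c arrays and 1 8c array. Arhgdib was detected on 1 array of 4c and 1 of 8c, and Ccdc80 on 3 of each. All of these genes therefore entered the search through 2c, where they were high. The 15 values share arrays and experiments, so no p is given, and over all genes compared the median was 0.10, with 5% of genes under -0.67 and 5% over 0.76.

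Pilra is an inhibitory receptor of myeloid cells, Tyrobp an adaptor of myeloid receptors and Cd5l a protein secreted by macrophages. Pltp transfers phospholipids between lipoproteins, Ifitm1 is an interferon-induced membrane protein and Ccdc80 a matrix protein. Their log2 differences of 8c from 2c, which their likeness to Anxa3 fixed in part and which are given with no test, ran from -1.80 (Ifitm1) to -3.88 (Pilra). Of the first 6 genes 2 were kept when Spearman's rank correlation replaced Pearson's r, and 3 to 6 when 1 experiment was left out.

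Among the annexins, the correlation with Anxa3 after removal of experiment means was 0.98 for Anxa2, 0.89 for Anxa5 and 0.82 for Anxa7. For Anxa4, Anxa6 and Anxa11 it was -0.15, -0.12 and 0.00. With no mean removed, that of Anxa7 was 0.34. For Anxa2, Anxa5 and Anxa7 these values largely restate the difference of 2c from 4c and 8c, which was known when the members were chosen. They also include readings under background: Anxa3 and Anxa5 were each detected on 6 of the 15 arrays and Anxa2 on 8. Nothing further is read from them.

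Markers of other liver cells were lower in 8c and 4c too. Of 8 tested Kupffer cell markers (liver macrophages), 7 passed as lower in 8c than in 2c and 6 as lower in 4c by limma at an adjusted p under 0.05, with medians of -3.69 and -3.30 over the 8. They were the lectin Clec4f (8c only), the lysosomal protein Cd68, the haemoglobin scavenger receptor Cd163, Cd5l and the complement genes C1qa, C1qb and C1qc. Clec4f differed by -5.16 (SE 0.80, limma adjusted p = 0.0088) between 8c and 2c, lower in 5 of 5 experiments. Cd163, detected on no 4c or 8c array, was 6.21-fold higher in 2c than in 4c and 6.12-fold higher than in 8c. For these folds Cd163 was set on dim arrays to the floor or to its own level, whichever was higher. It entered the test through its 2c arrays alone, where it is high, so its call supports nothing by itself. Cd5l, detected on 0 4c arrays and 1 8c array, also reached the 5 detected arrays that a test needed through 2c. The same limit holds for the call of Cd5l. Of the 2 Kupffer markers detected on all 15 arrays, Cd68 and Csf1r, Cd68 passed in both comparisons, and with no filter on dim probes 5 of 12 Kupffer markers passed in 8c and 0 in 4c. With normexp 3 and 2 of the 8 passed, and with no replicate block 2 and 0. In 8c, 2 passed without experiment 1, 3 without experiment 2 or 3, 7 without experiment 4 and 1 without experiment 5. In 4c, 5 passed without experiment 4 and 0 without any other one. With each experiment left out in turn, the counts over all features fell too.

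Of 9 tested stellate cell markers 5 passed by limma as lower in both 8c and 4c: the vitamin A enzyme Lrat, Reln, the collectin Colec11, the proteoglycan Bgn and the collagen Col3a1. Of 8 sinusoidal endothelial markers 4 passed in 8c, the hyaluronan receptor Lyve1, the VEGF receptor Kdr, Fcgr2b and Tek, and all of these but Kdr in 4c. Of 3 tested cholangiocyte markers, the adhesion molecule Epcam passed as lower in both. Between 8c and 4c 0 markers of these lists passed. Without experiment 5, 0 markers of these 3 lists passed against 2c. In 4c, without experiments 1, 2, 3 and 4 in turn, 2, 1, 0 and 3 stellate and 2, 1, 1 and 3 endothelial markers passed, and 0 cholangiocyte markers in each. With no replicate block the counts in 8c and 4c were 3 and 1 for stellate, 2 and 0 for endothelial and 0 and 0 for cholangiocyte markers. Within either slide, and without the arrays rich in acinar transcripts, 0 passed in each list, where 0 of all features passed against 2c. With normexp 3 stellate, 1 endothelial and 0 cholangiocyte markers passed in 4c. Lrat, detected on no 4c or 8c array, also entered the test through 2c alone.

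The summed level of the 12 Kupffer markers with a probe, as a percentage of the array's 75th percentile, was 77.7 to 1506 in 2c, 17.0 to 62.7 in 4c and 13.4 to 56.9 in 8c. Per array, 8 to 10 of the 12 were detected in 2c, 4 to 5 in 4c and 2 to 7 in 8c. Marco and Timd4 were detected on no array. The 12 stellate markers summed to 1374 to 2484 in 2c, 1216 to 1592 in 4c and 1305 to 1539 in 8c, with Dcn and Col1a1 detected on no array, and the 8 endothelial markers to 38.2 to 202, 13.5 to 34.7 and 12.9 to 31.6.

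The highest Kupffer and endothelial sums were on the 2c array of experiment 1, as was the highest Anxa3 level, and the 5 2c arrays had the 5 highest sums of both lists. The 8c array of experiment 3, the only one of 8c that detected Anxa3, also had the highest Kupffer sum of 8c, at 56.9. Among other lists, the 8 cholangiocyte markers summed to 25.7 to 41.8 in 2c and 26.1 to 43.2 in 8c, with Krt7 and Krt19 detected on no array. Of 7 neutrophil and 3 erythroid markers 0 could be tested, and of 2 tested mesothelial, 2 lymphocyte and 1 platelet markers 0 passed. The part of these cells in the annexin levels was not tested.

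**Figure D4:**
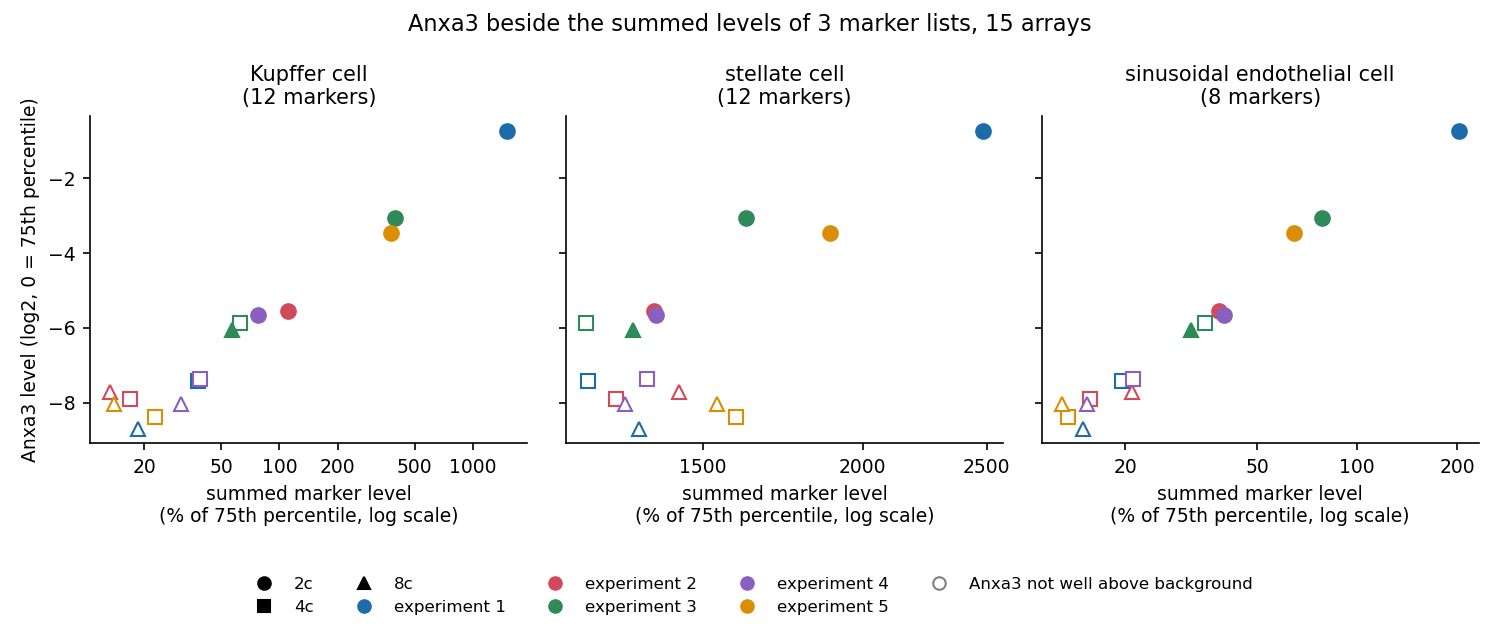
Level of Anxa3 (y axis, log2 relative to the array's 75th percentile) against the summed level of 3 lists of cell type markers (x axis, percentage of the 75th percentile, log scale) on the 15 arrays. Shapes are fractions, colours experiments and open symbols arrays where Anxa3 was not well above background; the 2c array of experiment 1 is the highest on all 4 axes.

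Hepatocyte genes checked the label of the sorted cells. All 9 hepatocyte markers were detected on every array, and 0 of the 9 passed in any of the 3 comparisons by limma. Albumin (Alb) was at 7.10 in 2c and 6.96 in 8c, transthyretin (Ttr) at 7.78 and 7.61, and apolipoprotein A-I (Apoa1) at 5.41 and 5.38. The 8c against 2c differences were -0.14, -0.18 and -0.03, with SEs of 0.14, 0.14 and 0.08.

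None of the tested partners of the annexins passed by limma in any of the 3 comparisons: 0 of 5 S100 partners (of 8 listed), 0 of 5 other binding partners and receptors (of 10), 0 of 12 membrane repair genes (of 13) and 0 of 5 genes of phosphatidylserine exposure (of 9). Of all features 2.37% passed for 8c against 2c, 1.27% for 4c against 2c and 0.651% for 8c against 4c. With shares this small, 0 in such short lists says little about the partners. S100a10, the partner of Anxa2, was detected on every array, and its difference was -0.19 in 8c and -0.20 in 4c against 2c (SE 0.11; limma adjusted p = 0.49 and 0.43). The S100 genes named for the highest probe signal, which ranks probes and not genes, were S100a16, at 0.23 in 2c and 0.22 in 8c, and S100a13, at -1.51 and -1.38. S100a6 and S100a11, partners of Anxa1, Anxa2 and Anxa11, were detected on no array.

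Plasminogen (Plg), which the Anxa2 complex binds, was at 5.95 in 2c and 6.06 in 8c, and Pdcd6, a calcium sensor that binds Anxa7 and Anxa11, at 0.72 and 0.71. Of the repair genes, acid sphingomyelinase Smpd1 was at 3.88 in 2c and 3.76 in 8c, and the small calpain subunit Capns1 at -0.89 and -0.82. Among genes that move phosphatidylserine, the flippase subunit Tmem30a was at 1.19 in 2c and 1.16 in 8c, and the scramblase Xkr8 at -0.44 and -0.31. The receptor of Anxa1, Fpr2, was detected on no array.

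Age was tested on a measure that did not choose the genes, the mean of each experiment over its 3 fractions. None of the 7 annexins passed for a slope with age by limma, where 0.0586% of all features did. Anxa7 came closest, with experiment means of -3.68 at 12 weeks, -5.05 at 14, -3.50 at 6, -2.57 at 5 and -3.33 at 6. Its slope was -0.19 log2 units per week (SE 0.05, limma adjusted p = 0.219). Its unadjusted p was under 0.05, as it was for 15.3% of all features.

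The slope of Anxa11 was 0.04 per week (SE 0.02, limma adjusted p = 0.35), and the slopes of Anxa3 and Anxa2 were -0.03 and -0.15 (SE 0.10 and 0.08, adjusted p = 0.91 and 0.41). All 6 arrays of the older rats (experiments 1 and 2) were on slide 1, and 5 of them had abundant acinar transcripts. Of the 9 arrays of the younger rats 2 were on slide 1 and 1, 8c of experiment 3, had those transcripts. The part of slide and of acinar transcripts in the slopes was not tested. The 8c against 2c difference depended on age in 0 of the 7 by limma, as in 0% of all features. The lowest p was that of Anxa7 (interaction -0.09 per week, SE 0.03, adjusted p = 0.96). Its unadjusted p was under 0.05, as it was for 4.81% of all features.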

How the data were processed

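The authors deposited 1 scanner file per array, in which each spot has an intensity on a linear scale. Per the file headers these come from Agilent Feature Extraction 11.5.1.1, and the submitters' processing notes name 10.7.3.1. Analysis began from the background-subtracted processed signal. Control and outlier spots were dropped, spots of 1 probe averaged, and the logs (base 2) centred by subtracting each array's 75th percentile over the 16211 probes detected everywhere. The deposited value table, also on a linear intensity scale, served as an alternative. Features detected on at least 5 of 15 arrays were tested, with the brightest probe for a gene.

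limma 3.58.1 (lmFit, eBayes; R 4.3.3) fitted all 15 arrays with terms for DNA content and for the experiment (the block), and two-sided p-values were adjusted after Benjamini and Hochberg over all features. The labels give the fractions of an experiment 1 number, and after removal of group means the 15 same-experiment pairs had a median correlation over genes of 0.59 (0.04 to 0.79). Age was fitted to the 5 experiment means and, as an interaction, in the blocked model. Nothing says whether arrays of a group come from separate animals, though the labels call the experiments independent. The fit was tested on simulated data. The members and lists were chosen with earlier results of these data known. All members are named, with the passing or else the 2 brightest genes of each partner list and the genes most like Anxa3; S100a10, S100a6, S100a11 and Fpr2 were added after their values were seen.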

Additional observations from a re-analysis of the deposited data

Results flagged for a closer look

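The level of Anxa13 on the 8c array of experiment 2 was -3.26, far from the other 8c arrays, which lay between -8.73 and -8.17. The gap took 0.898 of the range of the 5 arrays, above the limit of 0.71 for a lone value. It was 1 of 27 groups looked at in this way, and chance sets apart about 1 in 20.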

How the results depend on the processing

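In 18 or 19 alternatives per gene, the differences of Anxa2, Anxa3, Anxa5 and Anxa7 from 2c kept their sign in both comparisons. The count of annexins that passed moved more. In 8c against 2c, where 3 passed, and in 4c against 2c, where 2 passed, 0 passed with no replicate block, with slide in place of the experiment, within slide 1, within slide 2, without the arrays with acinar transcripts, with no filter on dim probes, and with only probes detected on all arrays, a filter that leaves 4 annexins. With normexp background correction 1 and 0 passed, and with dim arrays at their floor, an alternative chosen after seeing the data, 1 and 1. Leaving out 1 experiment in turn gave 0 to 3 and 0 to 1. Without the block, 39 and 3 of all features passed, against 404 and 217. Among the alternatives normexp moved the sizes most: Anxa3 to -0.93 and -0.90, Anxa2 to -0.59 and -0.62. That setting adds an offset of 50 to every intensity and then normalizes by quantiles. By arithmetic, an added constant narrows log2 differences of dim probes. The parts of the offset and of the other steps of this setting in the change were not tested. Neither set of sizes is preferred here.

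The Kupffer count of 7 and 6 lower was 2 and 0 with no replicate block, 1 and 0 without experiment 5, and 0 and 0 within either slide, with 8 of 8 below 2c in sign in each of these. Within either slide 0 of all features passed against 2c too. Between 8c and 4c, and for age, 0 annexins passed in every alternative run. Of the 6 genes most like Anxa3, 2 were kept with Spearman's rank correlation. Signal near the floor limits the size of the Anxa2, Anxa3 and Anxa5 differences.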
